A study of Rattus norvegicus with 62 samples.

Results

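The heat shock and unfolded protein response genes are 39 rat genes that code for cytosolic and mitochondrial chaperones, small heat shock proteins, chaperones and disulfide isomerases of the endoplasmic reticulum (ER), and the sensors and transcription factors that control them. The members were chosen by name, and each probe set whose single gene symbol in the platform annotation is a member was taken, whatever its values. Of the 39 genes, 35 had a probe set, with 53 probe sets in all out of 31042 that are not array controls. The whole array names 14217 genes in this way. Hspa1b, Hspa8, Hsp90aa1 and Ern1 had no probe set under their own symbol and were not analysed here. A single probe set stood for 23 of the members, and 12 had between 2 and 4. A gene is given below by its brightest probe set unless another is named.

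Male Wistar rats gave total RNA of the brainstem, the hippocampus and the frontal cortex after they had received phenytoin (75 mg/kg), levetiracetam (150 mg/kg) or a control solution by gastric tube 2 times a day for 90 days. Both drugs are antiseizure medicines: phenytoin blocks voltage-gated sodium channels, and levetiracetam binds a protein of synaptic vesicles. Each of the 9 groups had 7 arrays, except control frontal cortex, where the array numbered 4 was not analysed here and 6 remained. The labels of the levetiracetam brainstem arrays 1 and 2 name both drugs, the doses of the drugs differ, and the labels give no age and do not say whether the regions came from the same animals.

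Chaperones bind unfolded proteins and release them in cycles driven by ATP. In the heat shock response, unfolded protein in the cytosol frees the transcription factor Hsf1, which binds heat shock elements and switches on HSP70, HSP90, J-domain and small heat shock proteins. In the unfolded protein response, the ER chaperone BiP, made by Hspa5, leaves the sensors Ire1, Perk and Atf6, and the factors Xbp1, Atf6 and Atf4 then raise ER chaperones, degradation components and Ddit3. In brain, small heat shock proteins are known mainly from glia and from large brainstem and spinal neurons.

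For the members, 29 of the 39 genes had an entry in RefSeq's promoter windows on the GRCr8 assembly (250 bases before to 50 after the start), with 30 windows in all. The heat shock element was searched as GAANNTTC or TTCNNGAA, and it lay in the windows of 11 member genes and in 15.9% of all 33469 promoters. The ER stress element of type I (CCAAT, 9 bases of any kind, then CCACG, on either strand) lay in 6 member windows and in 0.0657% of all promoters. Type II (ATTGG, 1 base, then CCACG, on either strand) lay in 3 member windows and in 0.0508% of all. TGACGTGG, an element bound by Atf6 and Xbp1, lay in 2 member windows and 0.595% of all, and TGATGNAA, an Atf4 element, in 2 and 3.98%. The elements overlap in places, and a match describes the letters only.

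The windows of Dnajb9, Hspa4, Atf4 and Hsp90ab1, which are also named in the results below, held none of these elements. Of the genes with a match, the stretches upstream of 6 are given 5′ to 3′ with the matched elements in capitals.
Hspa5 (chr3:38452963-38453001, plus strand, ER stress element): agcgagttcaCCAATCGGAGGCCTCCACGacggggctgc
Hspe1 (chr9:64084252-64084289, plus strand, heat shock elements): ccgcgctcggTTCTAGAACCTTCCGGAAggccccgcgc
Hspd1 (chr9:64084252-64084287, minus strand, heat shock elements): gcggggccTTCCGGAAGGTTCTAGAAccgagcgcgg
Hspb1 (chr12:26432393-26432440, minus strand, heat shock elements): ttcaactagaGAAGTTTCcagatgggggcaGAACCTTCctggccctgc
Bag3 (chr1:192533318-192533441, plus strand, a heat shock element and CCACGTCA, the reverse complement of TGACGTGG): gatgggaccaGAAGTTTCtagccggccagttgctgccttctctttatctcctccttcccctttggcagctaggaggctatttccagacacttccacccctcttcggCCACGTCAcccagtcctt
Hspa2 (chr6:100864368-100864395, plus strand, a heat shock element): ctctgagagtTTCCAGAAggcagggggt

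Hspe1 and Hspd1, the subunits of the mitochondrial chaperonin, lie head to head, so their windows hold the same bases of chromosome 9 read from opposite strands.

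The deposited intensities were normalized and put on a scale of log2(intensity + 16), and all levels below are on that scale. A difference of 1 is close to a 2-fold change for bright probe sets and understates the change of dim ones. For the drug comparisons the dimmest 40 percent of probe sets were left out in each region. This kept 50, 47 and 48 member probe sets in brainstem, hippocampus and frontal cortex. By the brightest probe set 35, 34 and 35 member genes were tested. Hmox1, which codes for inducible haem oxygenase, fell below this limit in hippocampus. For comparisons between regions the filter was set over all arrays, which kept 48 member probe sets and 35 member genes. Tests were limma's moderated tests, adjusted by Benjamini-Hochberg over 18625 probe sets, and a gene is said to differ, rise or fall only with an adjusted p under 0.05. Nothing but the numbering says that arrays of a group come from separate rats, and the p-values measure only the spread between these samples. In tissue RNA, fewer cells of a type and less RNA per cell cannot be told apart.

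By role, the brainstem of control rats differed most from the other regions in the small heat shock proteins and Bag3, which were far higher there. Hspb1, Cryab and Bag3 were 3.41-fold to 5.35-fold higher in brainstem than in either of the other regions. By its brightest probe set Hspa2, an HSP70 protein, was lowest in frontal cortex, with a mean there under the lowest mean tested. Hspa4, an HSP110-type nucleotide exchange factor, was highest in frontal cortex. ER genes differed by smaller amounts, with Sdf2l1 as the largest. In number, 17 members were higher and 2 lower in brainstem than in hippocampus, where 29.5% and 26.9% of all probe sets tested were higher and lower. Against frontal cortex 18 were higher and 8 lower in brainstem, beside 29.7% and 29.1% of all. Between hippocampus and frontal cortex 11 were higher and 6 lower in hippocampus, beside 21.7% and 24.4% of all. The median member was 0.15 higher in brainstem than in hippocampus and 0.24 higher than in frontal cortex, where the medians over all probe sets were 0.01 and 0.00.

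**Figure D1:**
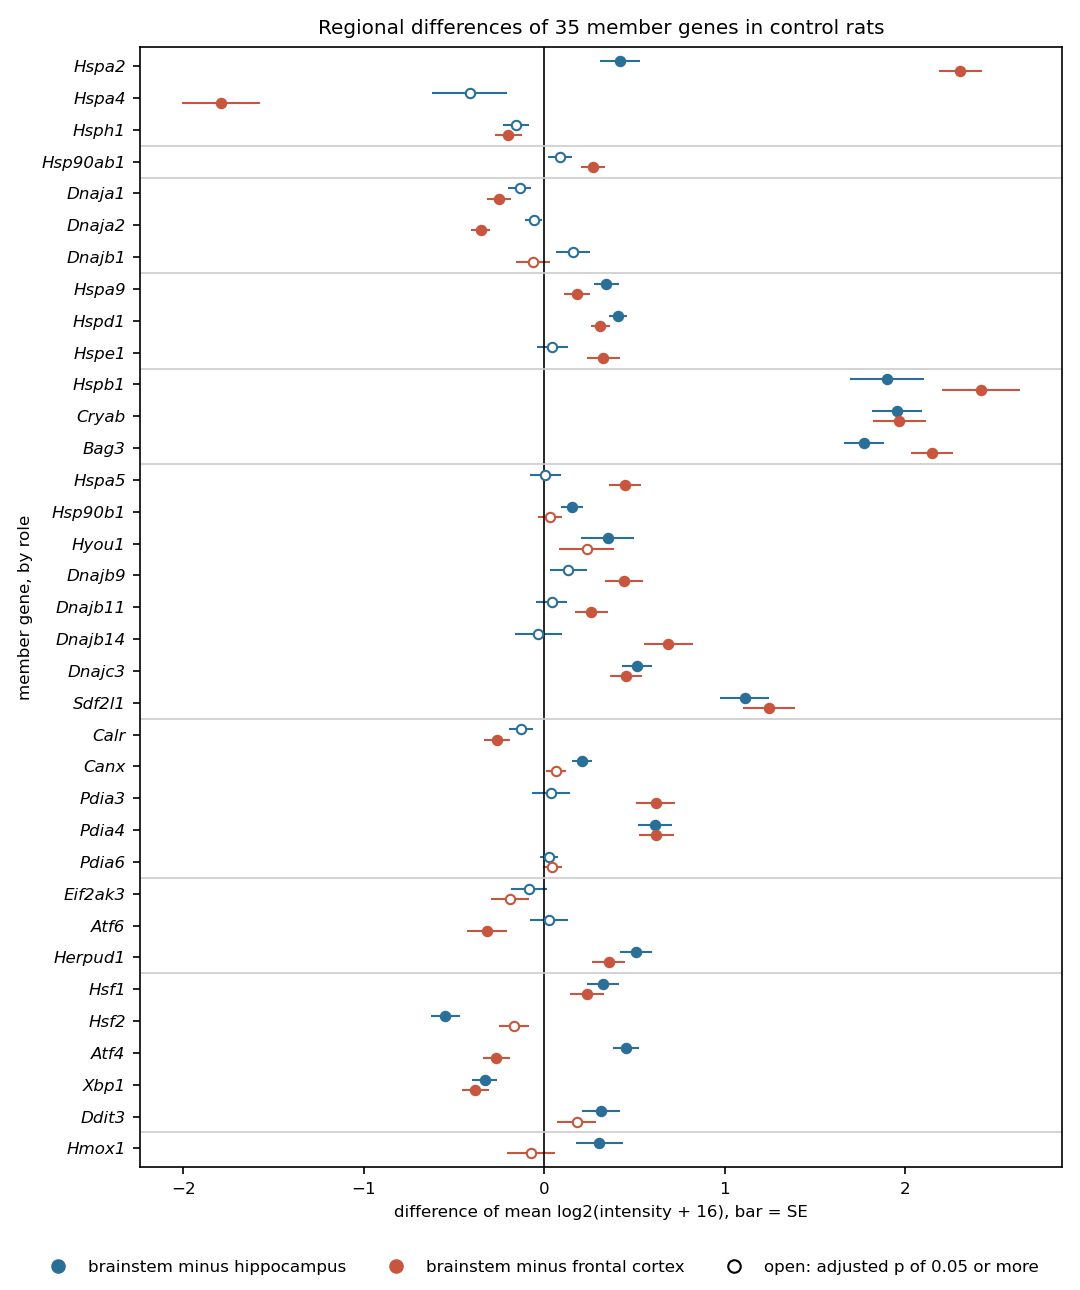
Difference of mean log2(intensity + 16) between brainstem and the other regions in control rats (horizontal axis, log2 units, bars are SE) for 35 member genes grouped by role, blue against hippocampus and red against frontal cortex, filled where the adjusted p was under 0.05. Hspb1, Cryab and Bag3 lie between 1.77 and 2.42 in both comparisons. Against frontal cortex Hspa4 lies at -1.79 and Hspa2 at 2.31, with a cortex mean of Hspa2 under the lowest mean tested. Most other genes lie closer to 0.

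Hspb1, the small heat shock protein HSP27, ranged in control brainstem from 7.63 to 9.0 with a median of 8.36. In control hippocampus it ranged from 6.22 to 7.06 (median 6.42) and in control frontal cortex from 5.48 to 6.74 (median 5.89). Every brainstem array lay above every array of the other regions, while hippocampus and cortex overlapped. The difference was 1.90 ± 0.21 (SE) against hippocampus and 2.42 ± 0.22 against frontal cortex (limma adjusted p 4.63e-12 and 2.91e-15). The hippocampus itself was 0.52 above frontal cortex (limma adjusted p 0.0410).

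Cryab, the small heat shock protein αB-crystallin, had lowest, median and highest levels of 10.36, 10.65 and 10.80 in control brainstem, against 8.36, 8.70 and 8.98 in hippocampus and 8.37, 8.67 and 8.99 in frontal cortex. The brainstem arrays stood apart, and the other regions lay on top of each other. Brainstem was 1.95 ± 0.14 above hippocampus and 1.97 ± 0.15 above cortex (limma adjusted p 5.12e-19 and 1.97e-18), while hippocampus and cortex differed by 0.01 (limma adjusted p 0.948).

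Bag3, a co-chaperone that links HSP70 to small heat shock proteins and to autophagy, ranged from 8.17 to 8.69 (median 8.32) in control brainstem, from 6.34 to 6.78 (6.58) in hippocampus and from 6.07 to 6.41 (6.19) in frontal cortex. The order brainstem, hippocampus, cortex held in the means, and only the last step overlapped between arrays. The differences were 1.77 ± 0.11, 2.15 ± 0.12 and 0.38 ± 0.12 (limma adjusted p 1.20e-21, 8.36e-25 and 0.00576). In treated rats the brainstem excess of these 3 genes was 1.38 to 2.74 in every comparison with another region, and each of the 12 values passed the test.

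Marker genes of several cell types moved with these 3 members. All 9 measured oligodendrocyte markers were higher in control brainstem than in hippocampus and in cortex, with medians of 1.70 and 1.79. Their summed intensity was 30006 to 33558 in control brainstem, 14994 to 19481 in hippocampus and 11731 to 17796 in cortex. The summed intensity of 10 neuronal markers was also higher in control brainstem, at 28030.2 to 33129.5. This neuronal sum was 19864.3 to 22003.4 in control hippocampus and 18410.7 to 23562.5 in control cortex, without overlap with brainstem. Bright markers weigh most in such a sum, so it does not say how many of the 10 neuronal markers were higher. Of 8 astrocyte markers 5 were higher and 3 lower in brainstem than in hippocampus, and of 8 markers of endothelium and mural cells 5 were higher and 0 lower. The part of these cell types in the differences was not tested. Among hippocampal arrays the highest Cryab, 9.94, came from phenytoin array 7, where the oligodendrocyte sum was 27429 and the sum for endothelium and mural cells 3362, each the highest of that region. On that array the sum of 8 striatal markers also stood apart, at 9925 against 1115 to 1387 in control hippocampus. The relation of Cryab to these sums was not tested.

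**Figure D2:**
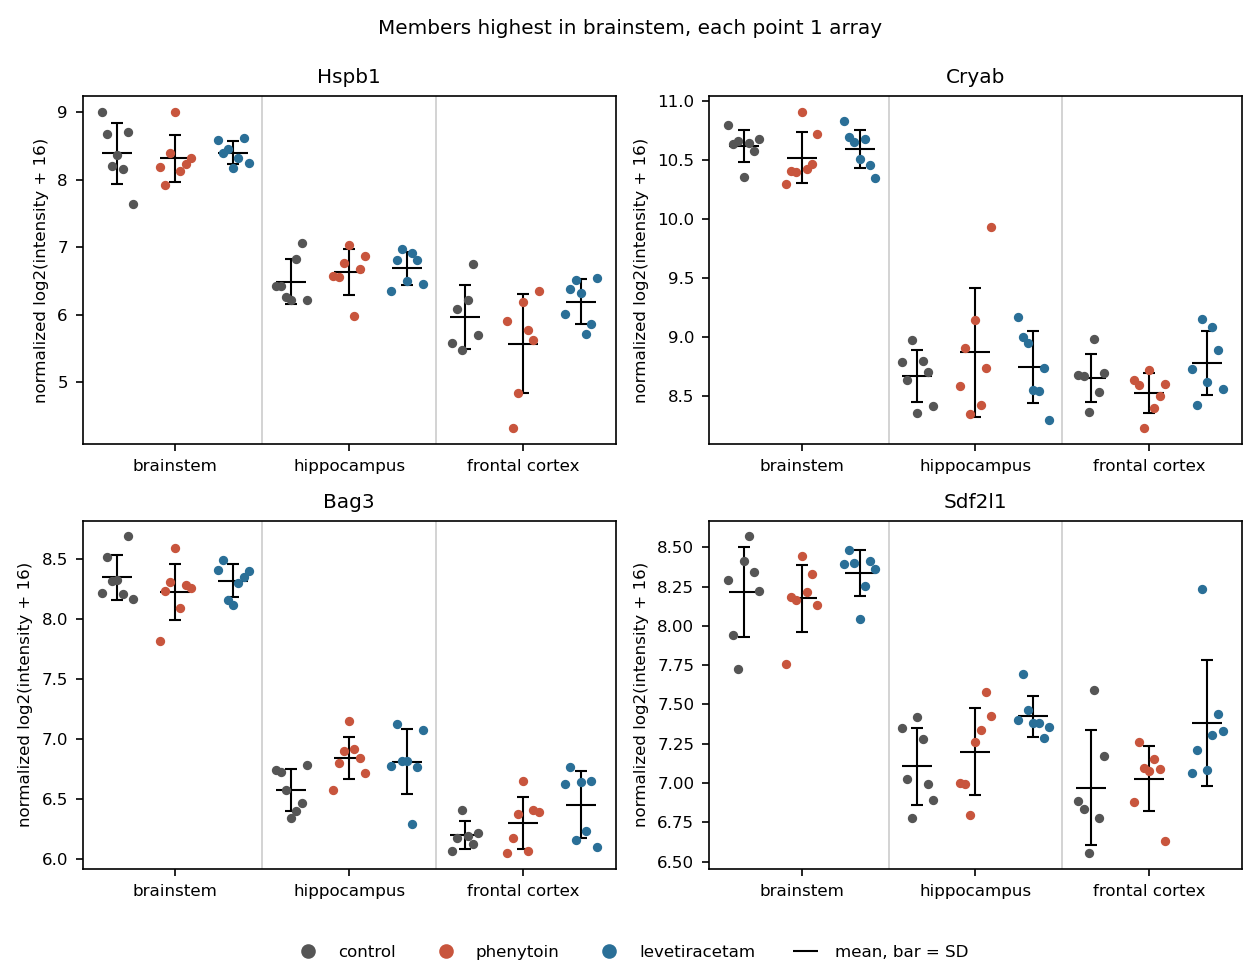
Normalized log2(intensity + 16) of Hspb1, Cryab, Bag3 and Sdf2l1 on each array (points), by region and treatment (grey control, red phenytoin, blue levetiracetam), with the mean and SD of each group. For Hspb1, Cryab and Bag3 all brainstem arrays lie above the control arrays of the other regions, and the 3 treatments of a region overlap.

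The cytosolic HSP70 group did not move together. Hspa2 ranged in control rats from 7.35 to 8.03 (median 7.64) in brainstem, from 7.08 to 7.42 (7.24) in hippocampus and from 4.95 to 5.55 (5.42) in frontal cortex. The cortex arrays lay below all others, with a mean (5.36) under the lowest mean tested (5.49 over all regions), so the probe set passed the filter through other groups. Hspa2 in cortex was 2.31 ± 0.12 below brainstem and 1.89 ± 0.12 below hippocampus (limma adjusted p 8.10e-26 and 8.30e-21). The calls of this probe set against cortex are in the counts above but are not read as a difference. The dimmer probe set of Hspa2 (by the mean over all arrays) gave a brainstem excess over cortex of 0.74 ± 0.12 (limma adjusted p 4.11e-07) and no called difference between hippocampus and cortex (0.06, adjusted p 0.71), so the probe sets disagree on the low level of cortex. Hspa4 showed the opposite order, with 9.12 to 9.42 (median 9.34) in control cortex, 6.86 to 8.61 (8.16) in hippocampus and 7.25 to 8.18 (7.36) in brainstem. Its cortical arrays lay above all others, by 1.79 ± 0.22 over brainstem and 1.38 ± 0.22 over hippocampus (limma adjusted p 1.17e-10 and 2.89e-07). The hippocampal range of Hspa4 was wide, and brainstem and hippocampus overlapped. Hsph1, another HSP110 protein, was 0.20 lower in brainstem than in cortex (limma adjusted p 0.0210).

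The other cytosolic chaperones differed less, in either direction. The J-domain proteins Dnaja1 and Dnaja2, which hand substrates to HSP70, were 0.25 and 0.35 lower in brainstem than in cortex, with all brainstem arrays below all cortex arrays (limma adjusted p 0.00100 and 1.70e-08). A second probe set of Dnaja1 showed no such difference (0.01). Hsp90ab1, the constitutive HSP90, was 0.27 higher in brainstem than in cortex (limma adjusted p 0.000583), and its second probe set gave 0.61. The mitochondrial chaperones were all higher in brainstem than in cortex, Hspe1 by 0.33, Hspd1 by 0.31 and Hspa9 by 0.18.

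Among ER chaperones 6 of 8 were higher in brainstem than in frontal cortex, 4 of 8 were higher than in hippocampus, and 0 were lower in either comparison. Sdf2l1, a partner of ER J-domain proteins, had lowest, median and highest levels of 7.73, 8.29 and 8.57 in control brainstem, 6.78, 7.03 and 7.42 in hippocampus and 6.55, 6.86 and 7.59 in cortex. The brainstem arrays did not overlap with the others, and the differences were 1.11 ± 0.14 and 1.25 ± 0.14 (limma adjusted p 2.80e-10 and 2.56e-11). Hspa5 was 0.45 ± 0.09 higher in brainstem and 0.44 ± 0.09 higher in hippocampus than in cortex (limma adjusted p 1.43e-05 and 3.14e-05), without overlap, and differed by 0.01 between the former regions. Dnajb14, an ER J-domain protein, had 6.38 to 7.07 (median 6.63) in cortex, 7.04 to 8.05 (7.16) in hippocampus and 6.81 to 7.60 (7.52) in brainstem; hippocampus exceeded cortex by 0.72 ± 0.14 (limma adjusted p 1.32e-05), with a small overlap.

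Of the lectin chaperones and disulfide isomerases, Pdia4 and Pdia3 showed the largest regional differences. Pdia4 had 8.26 to 8.87 (median 8.45) in control brainstem, 7.74 to 8.08 (7.84) in hippocampus and 7.67 to 8.08 (7.88) in cortex. Brainstem arrays lay above all others, by 0.61 ± 0.09 over hippocampus and 0.62 ± 0.10 over cortex (limma adjusted p 7.01e-08 and 1.42e-07). Pdia3, a disulfide isomerase that works with calnexin, had 10.60 to 10.76 (median 10.69) in brainstem, 10.17 to 11.02 (10.70) in hippocampus and 9.94 to 10.35 (10.01) in cortex. Cortex was the low region, 0.62 ± 0.11 under brainstem and 0.58 ± 0.11 under hippocampus (limma adjusted p 1.37e-06 and 8.60e-06). The other probe set of Pdia3 gave 0.08 and -0.03 and no call. Calr was 0.26 lower in brainstem than in cortex (limma adjusted p 0.00111). Pdia6 did not pass the test in any regional comparison of control rats.

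The transcription factors each had their own order. Atf4, the factor of the integrated stress response, ranged from 10.50 to 10.89 (median 10.74) in control cortex, from 10.28 to 10.65 (10.41) in brainstem and from 9.90 to 10.17 (9.95) in hippocampus. Every hippocampal array lay below every array of the other regions, by 0.72 ± 0.07 under cortex and 0.45 ± 0.07 under brainstem (limma adjusted p 1.88e-12 and 1.36e-07). Hsf2, a heat shock factor active in development, was highest in hippocampus, 0.55 above brainstem and 0.38 above cortex. Its other probe sets disagree on the cortex, with hippocampus 1.02 higher on one and -0.18, not called, on the other. Xbp1 was lowest in brainstem, by 0.33 and 0.38 (limma adjusted p 7.61e-05 and 1.26e-05). Herpud1, which builds the ER degradation complex, was highest in brainstem, by 0.51 and 0.36, without overlap.

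The regional calls recurred in treated rats at about the rate of the array as a whole. Of the 19 members called between brainstem and hippocampus in control rats, 15 were called in the same direction under both drugs (78.9%, against 70.2% of all probe sets called). For brainstem against cortex this held for 18 of 26 (69.2% against 70.8%), and for hippocampus against cortex for 9 of 17 (52.9% against 50.7%). Of 35 members, phenytoin rats had 22, 28 and 16 called in the 3 comparisons, beside 55.1%, 58% and 43.3% of all probe sets in either direction. Levetiracetam rats had 20, 22 and 18, beside 54.7%, 62.7% and 53.1%.

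Other genes of these pathways, from lists written with earlier results known, are counted beside the 29.5% and 26.9% of all probe sets that were higher and lower in brainstem than in hippocampus. Of 24 HSP70 and HSP90 co-chaperones and other heat shock genes, 13 were higher and 3 lower in brainstem than in hippocampus, among them the neuronal J-domain gene Dnajb2 (1.26) and the HSP110 gene Hspa4l (0.92). Of the 8 subunits of the cytosolic chaperonin TRiC, 7 were higher and 1 lower. Of 18 further ER folding and degradation genes, 7 were higher and 4 lower, with P4hb, a disulfide isomerase, at 0.82. Of 15 tested Atf4 targets and eIF2 kinases, 5 were higher and 3 lower. Of 9 genes of Nrf2, the factor that controls Hmox1, and its targets, 4 were higher and 2 lower, with Gclm, of glutathione synthesis, at 1.06. Hmox1 itself was dim everywhere, with 5.03 to 6.11 on the control arrays. Its mean of 5.48 in control hippocampus lay under the lowest mean tested (5.49 over all regions), so that it passed through the other regions, and its calls against hippocampus are in the counts above but are not read as a difference.

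With levetiracetam in brainstem Hspa5, Dnajb9, Pdia3, Hspe1, Hspa2 and Hspa4 rose and Hsp90ab1, Atf4 and Hsf1 fell. Of 35 members, 6 rose and 3 fell, while 5.17% and 4.06% of all probe sets tested rose and fell. The changes were small: the risers ranged from 0.20 to 0.55 on the log2 scale and the fallers from -0.17 to -0.34. The arrays of the groups did not overlap for 4 of the 35 members, beside 2.82% of all probe sets. The median of all members was 0.02, beside 0.00 for all probe sets. The comparisons of both drugs with control share the control arrays. By role, 2 of 3 HSP70 and HSP110 genes, 2 of 8 ER chaperones, 1 of 3 mitochondrial chaperones and 1 of 5 lectin chaperones and isomerases rose, and the medians of the ER and mitochondrial chaperones were 0.02 and 0.01.

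**Figure D3:**
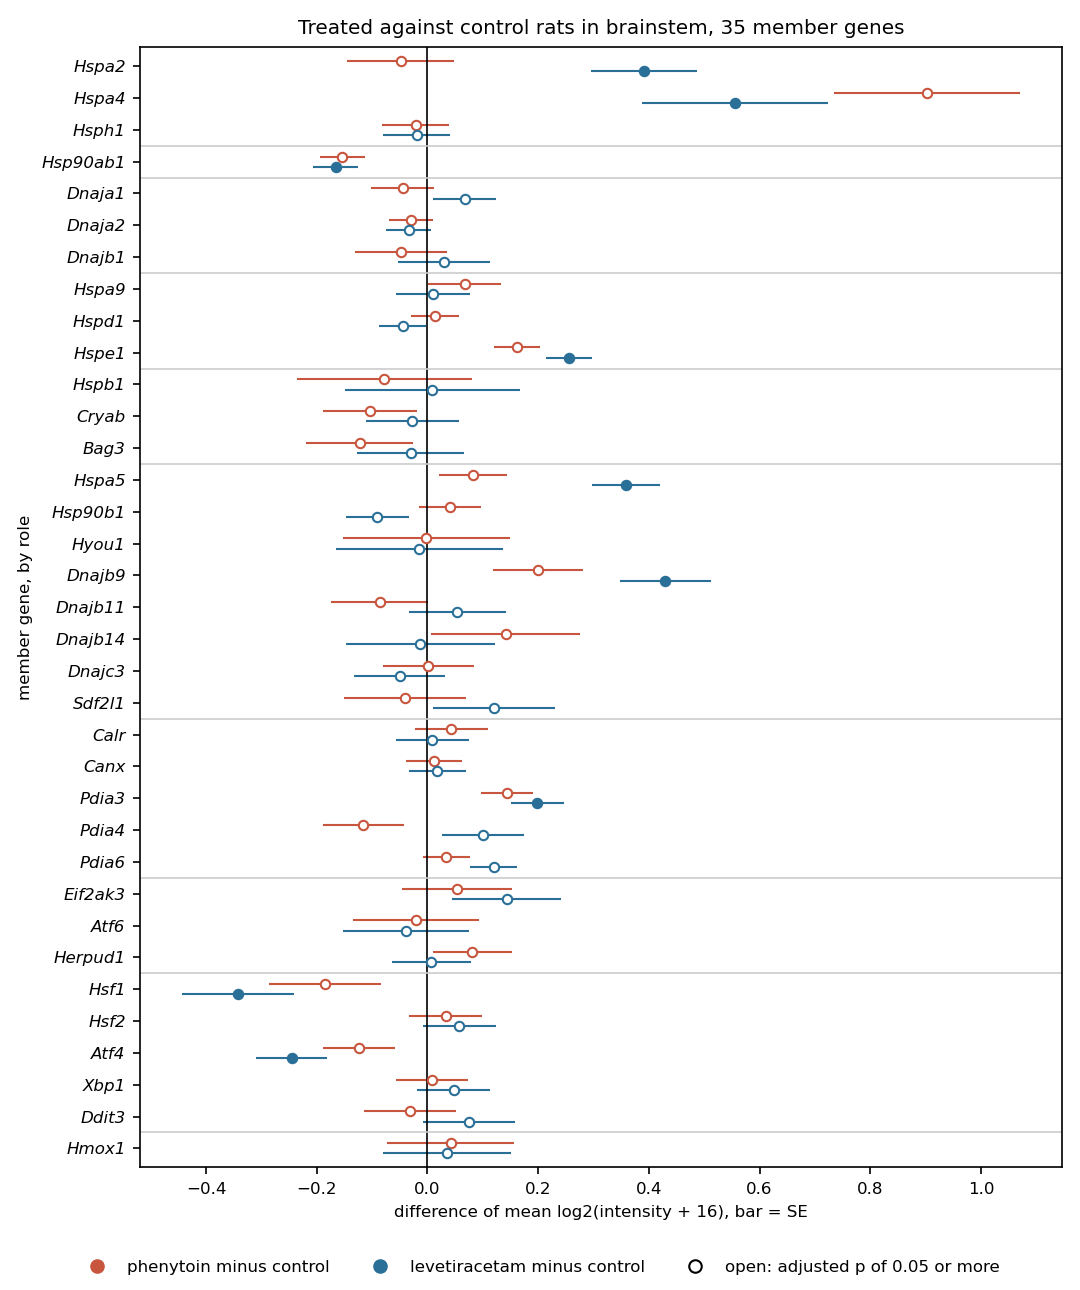
Difference of mean log2(intensity + 16) between treated and control rats in brainstem (horizontal axis, log2 units, bars are SE) for 35 member genes grouped by role, red for phenytoin and blue for levetiracetam, filled where the adjusted p was under 0.05. Levetiracetam has 9 filled points and phenytoin none, with phenytoin's Hspa4 at 0.90 as the largest open one.

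Hspa5, the ER chaperone BiP, ranged from 10.77 to 11.14 (median 11.02) in control brainstem, from 11.18 to 11.47 (11.36) with levetiracetam and from 10.91 to 11.25 (11.03) with phenytoin. Every levetiracetam array lay above every control array, and the phenytoin arrays overlapped with both. The rise with levetiracetam was 0.36 ± 0.06 (1.28-fold, limma adjusted p 0.000879), and the value for phenytoin was 0.08 ± 0.06 (adjusted p 0.83). Phenytoin was 0.28 below levetiracetam (limma adjusted p 0.0161).

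Dnajb9, an ER J-domain co-chaperone of BiP, ranged from 8.96 to 9.49 (median 9.10) in control brainstem and from 9.53 to 9.67 (9.59) with levetiracetam. The groups did not overlap, and the levetiracetam arrays lay close together. The rise was 0.43 ± 0.08 (1.35-fold, limma adjusted p 0.00205). Hspa5 and Dnajb9 kept their calls in each of 12 other ways of processing and with each of the 21 brainstem arrays left out.

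Hspe1, the co-chaperonin of mitochondria, ranged from 10.73 to 10.92 (median 10.80) in control brainstem and from 11.02 to 11.10 (11.06) with levetiracetam, again without overlap. It rose by 0.26 ± 0.04 (1.19-fold, limma adjusted p 0.000520). Its partner Hspd1, transcribed from the other side of the same heat shock elements shown above, stood at 11.15 with levetiracetam and 11.19 in control rats, a difference of -0.04 ± 0.04 (limma adjusted p 0.569); the difference between the partners was not tested. Of the 10 tested members with a heat shock element upstream or just downstream of the start, Hspe1 and Hspa2 rose and 8 were not called. Of the 9 with an ER stress element, Hspa5 rose and 8 were not called.

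Pdia3 ranged from 10.60 to 10.76 (median 10.69) in control brainstem and from 10.77 to 10.97 (10.87) with levetiracetam. The groups lay next to each other without overlap, and the rise was 0.20 ± 0.05 (limma adjusted p 0.00990). The other probe set of Pdia3 was not called. Pdia6 had 0.12 ± 0.04 and did not pass (limma adjusted p 0.0759). Of the 3 probe sets of Canx (calnexin, a lectin chaperone), 1 rose by 0.20 (limma adjusted p 0.0257), while the brightest had 0.02.

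Hspa2 ranged from 7.35 to 8.03 (median 7.64) in control brainstem and from 7.87 to 8.22 (8.0) with levetiracetam, with overlap. The rise was 0.39 ± 0.10 (limma adjusted p 0.0115), and its other probe set had -0.06, so that the mean of both gave 0.17 and no call (adjusted p 0.268). Hspa4 ranged from 7.25 to 8.18 (median 7.36) in control brainstem, from 7.48 to 8.67 (8.13) with levetiracetam and from 7.78 to 8.73 (8.56) with phenytoin. Most control arrays were low, but 2 of them reached into the treated range. Hspa4 rose by 0.55 ± 0.17 with levetiracetam (limma adjusted p 0.0368), a call lost without any 1 of 9 arrays (levetiracetam 2, 4, 5 or 6, or control 1 to 5), with adjusted p from 0.0604 to 0.0905. The larger value for phenytoin, 0.90 ± 0.17 (1.87-fold), missed the threshold (limma adjusted p 0.0539) and passed it without any 1 of 6 arrays (phenytoin 6, levetiracetam 1, 4 or 7, or control 6 or 7), with 0.00916 to 0.0410.

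3 members fell with levetiracetam in brainstem. Hsp90ab1 ranged from 12.08 to 12.23 (median 12.15) in control rats and from 11.91 to 12.09 (11.96) with levetiracetam, a fall of -0.17 ± 0.04 (limma adjusted p 0.0111) with the ranges just touching. Without normalization between arrays its difference was -0.02 and not called (adjusted p 0.870). The other probe set of Hsp90ab1 was not called. Atf4 ranged from 10.28 to 10.65 (median 10.41) in control rats and from 10.09 to 10.29 (10.19) with levetiracetam, a fall of -0.25 ± 0.06 (limma adjusted p 0.0171).

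Hsf1, the main factor of the heat shock response, ranged from 6.92 to 7.52 (median 7.26) in control rats and from 6.66 to 7.2 (6.83) with levetiracetam. The groups overlapped, and the fall was -0.34 ± 0.10 (limma adjusted p 0.0317). The call was lost without any 1 of 7 arrays (levetiracetam 3, 4, 5 or 7, or control 5 to 7), with adjusted p from 0.0507 to 0.0773.

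The 3′ to 5′ signal ratio of actin, a measure of RNA integrity in which a higher value means more 5′ loss, was 1.38 ± 0.06 (SD, n = 7) in control brainstem, 1.49 ± 0.11 with levetiracetam and 1.55 ± 0.16 with phenytoin on the log2 scale. The exact permutation p was 0.0268 for levetiracetam and 0.0122 for phenytoin (0.0536 and 0.0455 adjusted over 6 comparisons). With this ratio in the model the levetiracetam count fell from 9 to 4, and Pdia3, Hspa4, Hsp90ab1, Atf4 and Hsf1 lost their calls (limma adjusted p 0.0596 to 0.0804). Their differences were then 0.15, 0.59, -0.13, -0.20 and -0.35, with the same signs as before. With all 9 groups in 1 model 5 were left, and Hspe1 had an adjusted p of 0.0677. Markers of cell types were called too: of 9 oligodendrocyte markers 1 rose and 3 fell, of 10 neuronal markers 1 rose, and of 8 astrocyte and 7 microglial markers 1 each fell. Their part in the member results was not tested.

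**Figure D4:**
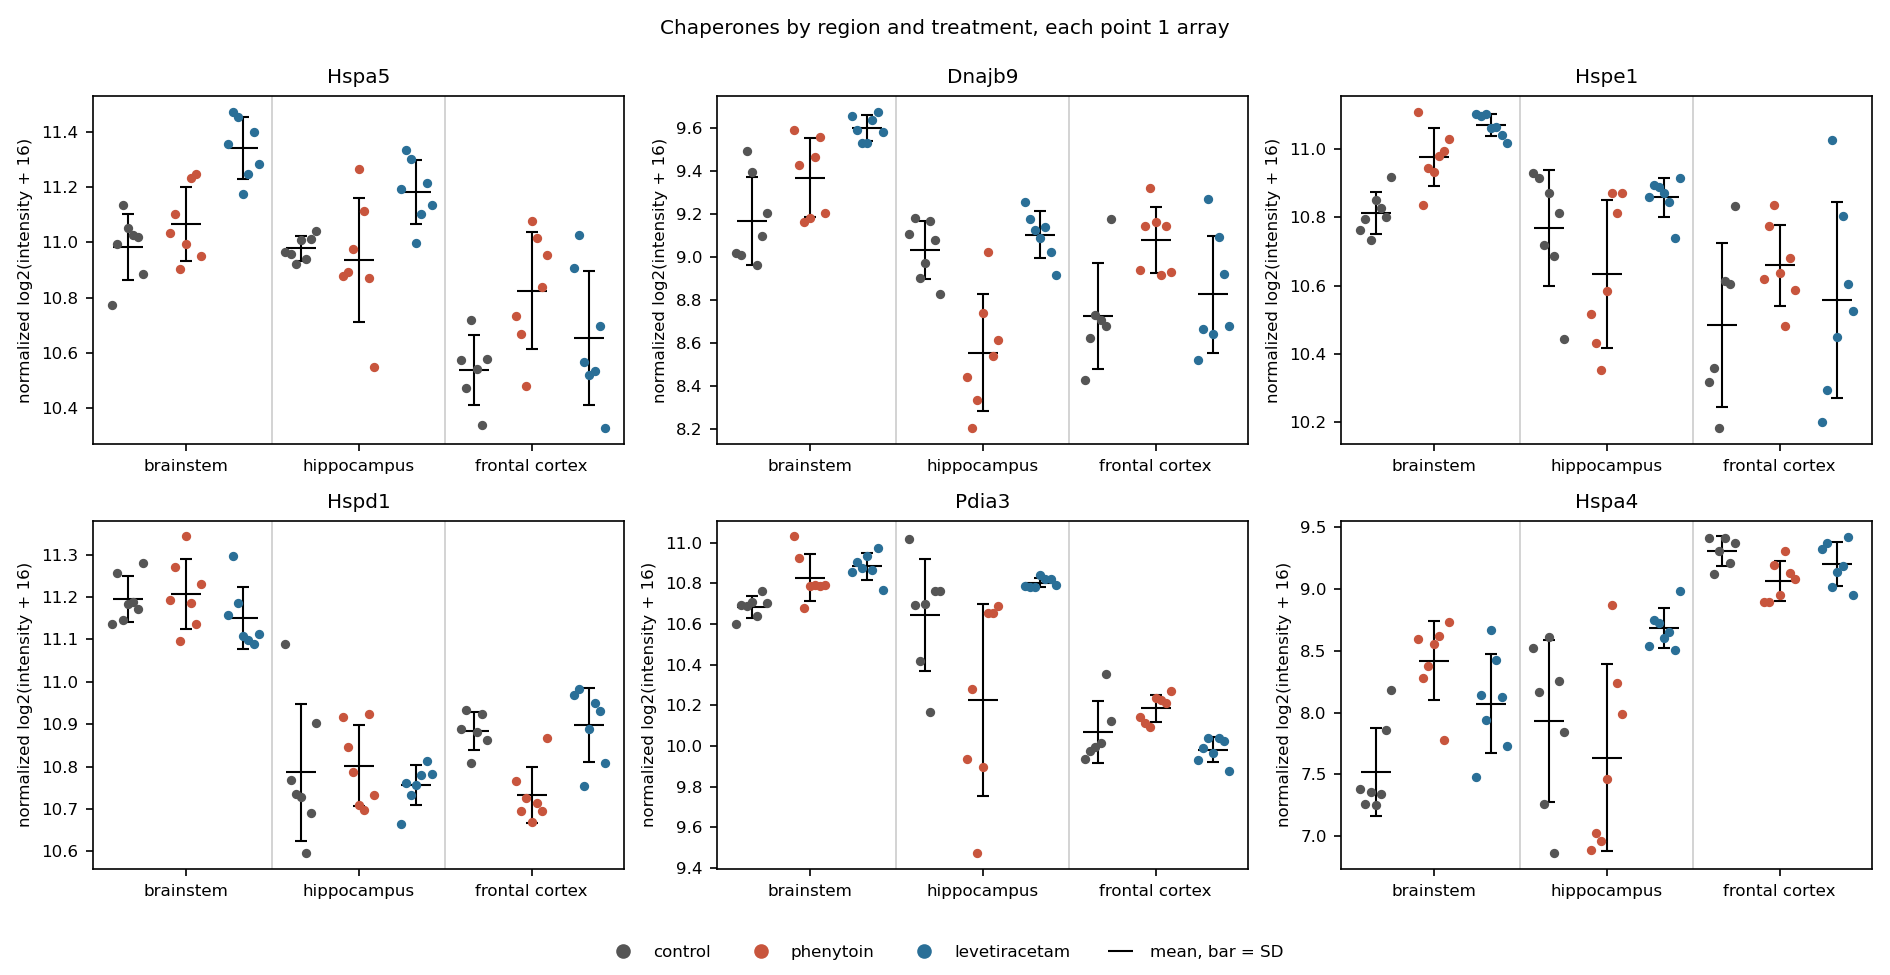
Normalized log2(intensity + 16) of 6 chaperones on each array (points), by region and treatment (grey control, red phenytoin, blue levetiracetam), with the mean and SD of each group. In brainstem the levetiracetam arrays of Hspa5, Dnajb9, Hspe1 and Pdia3 lie above all control arrays while those of Hspd1 overlap; in hippocampus the phenytoin arrays of Pdia3 spread from 9.47 to 10.69 and those of Hspa4 from 6.89 to 8.87.

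In brainstem phenytoin gave no member call, as it gave few elsewhere on the array (0.0161% of all probe sets in either direction). An unadjusted p under 0.05 was found for 5 members and for 1359 of all 18625 probe sets. Besides Hspa4, Hspe1 had 0.16 ± 0.04 and Hsp90ab1 -0.15 ± 0.04 with adjusted p of 0.305 and 0.312 in limma. Against levetiracetam, 2 members were lower with phenytoin, Hspa5 and Hspa2 (by 0.28 and 0.44), and 0 higher, beside 1.76% and 1.22% of all probe sets. Neither was called without levetiracetam arrays 1 and 2, whose labels name both drugs.

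Of the other pathway genes in levetiracetam brainstem, 3 of 24 co-chaperones rose and 1 fell. Chordc1, an HSP90 co-chaperone, rose by 0.44 and Bag5, a nucleotide exchange factor of HSP70, by 0.32 (limma adjusted p 0.00132 and 0.00891). Of 18 ER folding genes 1 rose, Serp1, which stabilises newly made ER proteins (0.21). Of 16 Atf4 targets and eIF2 kinases 1 fell, Slc3a2, an amino acid transporter chain (-0.25, limma adjusted p 0.0177). None of 8 TRiC subunits or 9 Nrf2 genes was called.

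In hippocampus the single member that differed from control was Dnajb9, which fell with phenytoin. It ranged from 8.83 to 9.18 (median 9.08) in control hippocampus, from 8.21 to 9.02 (8.54) with phenytoin and from 8.92 to 9.25 (9.12) with levetiracetam. Most phenytoin arrays lay below the control range, with some overlap, and the fall was -0.48 ± 0.10 (1.39-fold, limma adjusted p 0.00502). It was the only call among 34 members, where 4.69% of all probe sets fell and 4.55% rose. The count was 4 without phenytoin array 5 or 7, 2 without phenytoin array 6 or control array 3 or 5, and 3 without the 2 arrays of low weight, while Dnajb9 kept its call with any 1 array left out. On phenytoin array 7 the summed intensity of 8 striatal markers was 9925, against 1055 to 1432 on the other hippocampal arrays. The 3′ to 5′ ratio of Gapdh was 0.39 ± 0.10 (SD, n = 7) with phenytoin and 0.24 ± 0.12 in control rats (exact permutation p 0.0233, adjusted 0.140). With that ratio in the model the fall was -0.44 and not called (limma adjusted p 0.125).

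Levetiracetam gave no member call in hippocampus, where limma called 0% of all probe sets. At an unadjusted p under 0.05 there were 7 members and 1681 probe sets. Atf4 had -0.26 with all levetiracetam arrays below all control arrays, the smallest member adjusted p (0.266 in limma), and Pdia4 had 0.29 (adjusted p 0.284).

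Between the drugs the hippocampus showed 8 members lower and 1 higher with phenytoin, beside 8.75% and 8% of all probe sets. The lower ones were the ER genes Dnajb9 (-0.55), Hspa5 (-0.25), Pdia3 (-0.58), Pdia4 (-0.29), Pdia6 (-0.23) and Xbp1 (-0.22), and the HSP70 family genes Hspa2 (-0.43) and Hspa4 (-1.05). Pdia6 did not overlap between the drugs, with 9.75 to 9.97 with phenytoin and 9.98 to 10.24 with levetiracetam (limma adjusted p 0.00773). Pdia3 did not overlap either, with 9.47 to 10.69 and 10.78 to 10.84. Its control arrays, 10.17 to 11.02, overlapped with both groups, and the phenytoin range reached below them.

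Hsf1 was the member that was higher, by 0.36, with 6.95 to 7.27 against 6.62 to 6.90 and no overlap (limma adjusted p 0.00244). The 3′ to 5′ ratio of Gapdh in hippocampus was 0.39 with phenytoin and 0.27 with levetiracetam (exact permutation p 0.00932, 0.0839 adjusted over 9 comparisons). With the Gapdh ratio in the model 3 of these 9 members stayed called between the drugs and no others were called. The actin ratio was 1.45 and 1.28 (exact permutation p 0.0431, 0.0776 adjusted over 9 comparisons). With the actin ratio in the model 9 members were called, 7 of them the same. Other pathway genes lower with phenytoin than with levetiracetam were 5 of 24 co-chaperones, among them Ptges3, the p23 co-chaperone of HSP90 (-0.25), and Chordc1 (-0.43), while 2 were higher. Against control, 1 co-chaperone rose and 3 fell with phenytoin in hippocampus, with Ptges3 at -0.20 (limma adjusted p 0.00774). Of 18 ER folding genes P4hb rose by 0.38 and Edem1, which sends misfolded glycoproteins to degradation, had -0.39 (limma adjusted p 0.00744 and 0.00922). Of 9 Nrf2 genes 1 fell, Gsr, the glutathione reductase (-0.44), and 0 TRiC subunits or Atf4 targets were called. With levetiracetam 0 genes of these lists were called in hippocampus or cortex.

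In frontal cortex phenytoin raised a single member, Hspa2, and only by 1 of its probe sets. On the brighter probe set the control arrays ranged from 4.95 to 5.55 (median 5.42), the phenytoin arrays from 6.08 to 6.80 (6.31) and the levetiracetam arrays from 4.91 to 5.63 (5.22). All 7 phenytoin arrays lay above all 6 control arrays, a rise of 1.08 ± 0.15 on the log2(intensity + 16) scale (limma adjusted p 9.70e-05). The control and levetiracetam means, 5.36 and 5.28, lay under the lowest mean that was tested in cortex (5.48), so the probe set passed the filter through the phenytoin arrays (6.44), and no fold is given. On the dimmer one the phenytoin arrays ranged from 5.75 to 6.32 and the control arrays from 6.18 to 6.45, a difference of -0.28 ± 0.11 in the other direction that was not called (adjusted p 0.121). The mean of both probe sets gave 0.40 (limma adjusted p 0.0308), and with a floor of 1 in place of the added 16 the brighter one gave 1.51. Among all probe sets 5.11% rose and 1.27% fell.

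**Figure D5:**
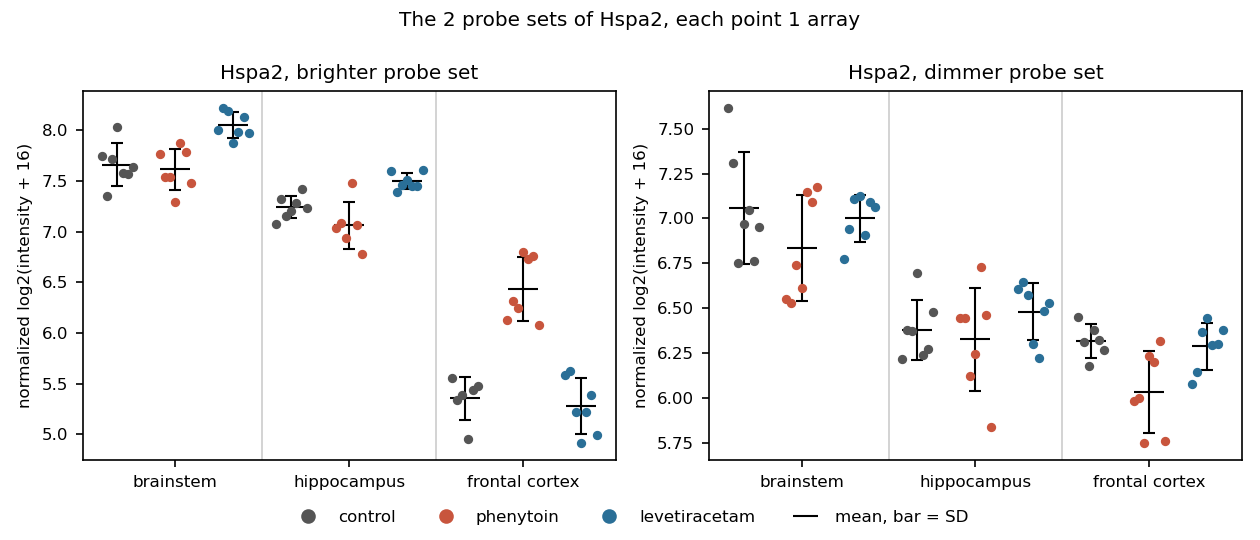
Normalized log2(intensity + 16) of both Hspa2 probe sets on each array (points), by region and treatment (grey control, red phenytoin, blue levetiracetam), with the mean and SD of each group. On the brighter probe set the phenytoin arrays of frontal cortex lie at 6.08 to 6.80, above the control arrays at 4.95 to 5.55; on the dimmer one they lie at 5.75 to 6.32, at or below the control arrays at 6.18 to 6.45.

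The actin ratio was 1.57 ± 0.14 with phenytoin and 1.32 ± 0.15 in control frontal cortex (exact permutation p 0.0152, adjusted 0.0455), and with it in the model the brighter probe set of Hspa2 remained called. Levetiracetam gave no member call in cortex, with 0% of all probe sets called by limma, 5 members and 748 probe sets with an unadjusted p under 0.05, and 0.704 as the lowest adjusted p of a member. Between the drugs Hspa2 was higher with phenytoin by 1.16, and Xbp1 (-0.39), Dnajc3 (-0.44), Atf4 (-0.27) and Dnajb14 (-0.33) were lower, beside 7.08% and 3.71% of all probe sets. The Hspa2 value is that of the brighter probe set, whose levetiracetam mean (5.28) lay under the lowest mean tested. The actin ratio was 1.57 with phenytoin and 1.26 with levetiracetam (exact permutation p 0.00932, 0.0455 adjusted over 9 comparisons). With it in the model 6 members were called, these 5 among them. Xbp1 did not overlap, with 9.69 to 9.90 under phenytoin and 10.06 to 10.35 under levetiracetam. Among other pathway genes Eif2ak2, the eIF2 kinase that senses double-stranded RNA, rose with phenytoin by 0.72 (limma adjusted p 0.000362), the single call among 15 Atf4 targets and eIF2 kinases. Ptges3 rose by 0.26, the single call of 24 co-chaperones, and Mbtps2, a protease that cuts Atf6, by 0.49 (limma adjusted p 0.0317 for each).

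For 6 members the phenytoin effect differed between regions in limma's F test over all 9 groups, beside 12.2% of all probe sets. In the order brainstem, hippocampus and cortex, the effects were -0.05, -0.18 and 1.08 for Hspa2, and 0.20, -0.48 and 0.35 for Dnajb9 (limma adjusted p 2.21e-08 and 4.30e-05). They were 0.90, -0.30 and -0.24 for Hspa4 and 0.14, -0.42 and 0.12 for Pdia3 (0.00298 and 0.00557 in limma). Hsf1 had -0.18, 0.19 and -0.25, and Hsp90ab1 -0.15, 0.13 and -0.17 (0.0222 and 0.0249 in limma). The second probe sets of Hspa2, Pdia3 and Hsp90ab1 were not called in this test (limma adjusted p 0.595, 0.819 and 0.350). The cortex effect of Hspa2 is taken from a control mean of 5.36, under the lowest mean tested. In Dnajb9, Pdia3, Hsf1 and Hsp90ab1 the hippocampal effect had the opposite sign to that of the other regions. For levetiracetam 0 members and 0.0644% of all probe sets differed between regions. Before adjustment 6 members and 1724 of all 18625 probe sets had a p under 0.05, and the lowest adjusted value of a member was 0.174 in limma.

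How ER genes followed Hspa5 from array to array was computed over all 62 arrays after taking out the group means, a set of 15 relations chosen after the data were seen. Among these 15 Pdia6 followed it most closely, with Pearson's r of 0.46 and Spearman's rho of 0.45 (permutation p 0.000170 and 0.000270, 0.00180 and 0.00262 adjusted). Its r was 0.40, 0.62 and 0.37 within brainstem, hippocampus and cortex, and 0.36 without the 2 arrays farthest from the median of Hspa5. Canx had r of 0.39 and rho of 0.40 (permutation p 0.00166 and 0.00132, adjusted 0.00830 and 0.00660), with 0.61, 0.73 and 0.10 by region and 0.29 without the 2 arrays. Of all probe sets 2.16% had a higher r with Hspa5 than Pdia6 had, and 4.63% a higher r than Canx.

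Atf4 ran against Hspa5, with r of -0.45 and rho of -0.44 (permutation p 0.000240 and 0.000350, adjusted 0.00180 and 0.00262). Its r was -0.72, -0.40 and -0.35 by region and -0.39 without the 2 arrays. A higher r with Hspa5 than that of Atf4 was seen in 97.2% of all probe sets. The other 12 relations, those of Hsp90b1, Xbp1, Dnajb9 and Herpud1 among them, had adjusted p above 0.05. The arrays of the regions may share animals, so that the 62 arrays are not all independent and these p-values may be too small. The adjustment also does not cover the choice of these relations.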

How the data were processed

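Expression was measured on 1-colour Affymetrix rat arrays (62 samples, 31042 probe sets besides 57 controls). The authors deposited linear intensity values per probe set; the values show that each array was scaled to a common trimmed mean (2 percent off each end), and the software that made them is not given in the sources used here. Median deposited intensity was 34.1 to 61.8 over arrays without missing values, and the number of arrays limits the precision. No array pair of a group correlated above 0.986. Phenytoin hippocampus array 4 lacked 4799 values, the brighter Hspa2 probe set among them, so that n = 6 there.

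Here arrays were quantile-normalized on the 26300 complete probe sets, and then 16 was added and log2 taken. The array controls and the dimmest 40 percent of the others were left out, by region for drug comparisons and over all arrays for regional comparisons and F tests. Drug comparisons were fitted per region on its 3 treatments, regional comparisons and F tests on all 9 groups, with limma 3.58.1 in R 4.3.3 (trended variance, Benjamini-Hochberg, threshold 0.05). The model was tested on simulated data. A gene stands as its probe set with the highest mean; all members and lists were chosen with earlier results of these data known. Values by array were given for each member called against control and for up to 10 members with the largest called regional difference; of the other lists up to 2 genes a comparison were named, by the smallest adjusted p among those called. Other members and probe sets named were chosen after their values were seen. Of the probe sets, 20826 had 1 gene symbol, 436 several and 9780 none, per the platform annotation. Probe sets of close paralogs may bind each other's RNA. Other choices tried were the values as deposited, other filters, array weights, RNA ratios, the replicate block, left-out arrays, averaged probe sets and 1 common model. Python 3.11.15 with SciPy 1.17.1 gave exact permutation tests and promoter matches.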

Additional observations from a re-analysis of the deposited data

Results flagged for a closer look

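In control frontal cortex, array 5 stood apart for Hspa2 (the brighter probe set), at 4.95 on the log2(intensity + 16) scale where the nearest of the other 5 arrays was at 5.34. It was the single such case in 33 groups of levels examined, of which chance marks about 1 in 20. The rise with phenytoin stayed called with any 1 array of the region left out (1.00 to 1.14). It comes from a probe set that passed the filter in cortex through the phenytoin arrays.

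The effect of phenytoin differed between the 3 regions for 6 members in limma's F test. The adjusted p was 2.21e-08 for Hspa2, 4.30e-05 for Dnajb9, 0.00298 for Hspa4, 0.00557 for Pdia3, 0.0222 for Hsf1 and 0.0249 for Hsp90ab1. For Hspa2, Pdia3 and Hsp90ab1 the second probe set was not called (limma adjusted p 0.595, 0.819 and 0.350). For Hspa2 the control mean of cortex, 5.36, lay under the lowest mean tested. The 3′ to 5′ ratio of actin was also higher with phenytoin in brainstem and cortex (exact permutation p 0.0122 and 0.0152, adjusted 0.0455 for each), and with it in the model the F test again called 6 members.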

How the results depend on the processing

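Of 22 results on single members, 13 kept their call under each other choice that could be run, and of 263 values 245 stayed on the same side of the threshold; none reversed. Hspa2 with phenytoin in cortex, among the 13, was not tested with the dimmest 60 percent left out. The member counts for levetiracetam against control in hippocampus and cortex, and for its F test, were 0 under every choice run.

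Phenytoin against control in cortex had 1 called member, against 2 on the values as deposited, 0 with the dimmest 60 percent left out, 4 with array weights, 2 without the arrays of low weight and 3 with all groups in 1 model. In brainstem it had 0, against 1 with the dimmest 60 percent left out and 1 without the arrays whose labels name both drugs. In hippocampus it had 1, against 4 with array weights, 0 with the Gapdh ratio, 2 with the actin ratio, 3 without the arrays of low weight and 3 in 1 model. Phenytoin against levetiracetam had 5 in cortex and 10 with array weights, 9 in hippocampus and 3 with the Gapdh ratio, and 2 in brainstem against 0 without the arrays naming both drugs, 1 with probe sets averaged and 1 in 1 model. Levetiracetam against control in brainstem had 9, against 4 with the actin ratio and 5 in 1 model. The cause of these shifts was not tested.

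With each array left out in turn, phenytoin against control gave 0 to 1 calls in brainstem, 1 to 4 in hippocampus and 1 to 2 in cortex; levetiracetam against control in brainstem gave 7 to 9. Phenytoin against levetiracetam gave 2 in brainstem throughout, 7 to 11 in hippocampus and 3 to 6 in cortex. Regional counts were 17 to 20, 25 to 28 and 13 to 18. The F tests were not run with single arrays left out; over the other choices that for phenytoin called 5 (Gapdh ratio, or averaged probe sets) to 9 (array weights) members.

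With the replicate number as a block, levetiracetam against control in brainstem had 7 called members, without Hspa4 (limma adjusted p 0.0514) and Hsf1 (0.0527), and no count moved by over 1.5 times. Same-numbered arrays of different regions had a median correlation of deviations of 0.12 (61 pairs, 38 of them over 0.1), and in 90 of 122 comparisons of an array with another region the best correlation was with its own number, a hint from the data that regions share rats; the labels do not say so, and between treatments the median was -0.01.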

Other observations

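Hspa4 and Pdia3 varied together between the hippocampal arrays, a relation chosen after the data were seen. The p-values below do not cover the choice of this pair among the members, so they are too small as a test of it. With group means taken out, Pearson's r over the 21 arrays was 0.80 and Spearman's rho 0.78 (permutation p 1e-05, the smallest the permutations can give, and 9e-05; 3e-05 and 0.00027 adjusted over the 3 regions). It was 0.73 without the 2 arrays farthest from the median of Hspa4, and 0.74 after the Gapdh and actin ratios were taken out. Of all probe sets 0.177% had a higher r with Hspa4. In brainstem r was 0.31 and rho 0.33 (permutation p 0.170 and 0.143), and in frontal cortex 0.04 and 0.05 (permutation p 0.885 and 0.832). In phenytoin hippocampus the arrays ran from 6.89 to 8.87 for Hspa4 and from 9.47 to 10.69 for Pdia3, and array 3 was low in both, at 6.96 and 9.47.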
